A study of Mus musculus with 2 samples.

Results

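Expression of 10 genes, *Il4i1*, *Il12a*, *Ccnd2*, *Serinc2*, *Sulf2*, *Tmem37*, *Pdgfa*, *Dyrk3*, *Mxd1* and *Cap1*, was examined in the cells of the murine femur that are not osteocytes. They are 10 of the 32285 genes in the count matrices. They were chosen by their values in osteocytes, since the study lists them as raised in osteocytes that express *Fgf23* after calcitriol. Their osteocyte values below are therefore a description and not a result. The study also lists *Vdr*, *Dnmt3a* and *Timp1*, which are not among the 10 and were read with the vitamin D genes below. Values of the 10 genes in osteoblasts, chondrocytes, fibroblasts, tendon cells and endothelium of the same libraries were not the study's criterion. However, the 10 were chosen with earlier results of these data known.

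The cells came from femurs of male C57BL/6J mice 7 weeks old, either untreated or injected intravenously with calcitriol, the active hormone form of vitamin D. Calcitriol was given at 2.5 μg/kg once a day in 3 injections, and bones were collected 24 h following the last of these. No vehicle-injected group was analysed here, and the labels name no allele beyond this strain for either group. The ends of the bones had been cut off, the marrow had been spun out, and CD45-positive cells had been removed before the droplets were made. The femurs of 6 mice were pooled into 1 library per group, so that no difference below has a replicate check, and the groups were compared without a test.

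Calcitriol acts by binding the vitamin D receptor (encoded by *Vdr*), a nuclear receptor that pairs with a retinoid X receptor and binds short repeated elements in DNA. In bone, osteoblasts and osteocytes carry the receptor, and classical targets there include osteopontin (*Spp1*), the osteoclast-inducing cytokine RANKL (*Tnfsf11*) and the calcitriol-degrading enzyme *Cyp24a1*. The 10 genes have different functions. Their products are secreted factors and enzymes (*Pdgfa*, *Il12a*, *Il4i1* and *Sulf2*), regulators of the cell cycle and of kinase signalling (*Ccnd2*, *Mxd1* and *Dyrk3*), membrane proteins (*Serinc2* and *Tmem37*) and an actin-binding protein (*Cap1*).

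The promoter sequences of 3 members are printed because *Il4i1* had nearly all of its calcitriol UMIs in osteocytes, *Pdgfa* was found in every type, and *Sulf2* was 2-fold higher in 4 types outside osteocytes. Sequences were taken from RefSeq (assembly GRCm38.p6), which held 14 annotated starts for 9 of the 10 members, and *Ccnd2* was not matched. Each run below is the 250 bases before a start, 5′ to 3′ on the strand of the gene. Capitals mark a match to one of the hexamers AGGTCA or AGTTCA or GGGTCA or GGTTCA, which are spellings of the receptor's element, read on both strands (TGACCC is GGGTCA on the opposite strand, and TGAACC is GGTTCA).
*Il4i1* promoter, chr7:44836038-44836287, plus strand: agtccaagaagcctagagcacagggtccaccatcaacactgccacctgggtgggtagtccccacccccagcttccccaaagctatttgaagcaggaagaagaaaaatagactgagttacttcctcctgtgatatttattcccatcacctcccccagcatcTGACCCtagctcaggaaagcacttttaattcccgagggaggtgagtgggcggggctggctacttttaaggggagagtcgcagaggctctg
*Pdgfa* promoter, start 1, chr5:138994282-138994531, minus strand: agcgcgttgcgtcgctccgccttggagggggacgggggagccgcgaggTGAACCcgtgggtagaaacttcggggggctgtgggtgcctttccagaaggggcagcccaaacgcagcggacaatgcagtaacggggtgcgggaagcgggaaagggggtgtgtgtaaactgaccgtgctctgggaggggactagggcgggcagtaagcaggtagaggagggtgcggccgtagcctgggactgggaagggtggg
*Sulf2* promoter, start 1, chr2:166155684-166155933, minus strand: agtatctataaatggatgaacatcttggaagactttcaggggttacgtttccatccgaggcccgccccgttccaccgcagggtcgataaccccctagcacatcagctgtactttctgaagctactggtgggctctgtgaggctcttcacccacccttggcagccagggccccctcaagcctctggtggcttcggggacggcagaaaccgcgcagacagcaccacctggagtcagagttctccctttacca

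The hexamer of *Il4i1* began 90 bases before the start, and that of *Pdgfa* 202 bases before it. No hexamer was found in the *Sulf2* sequence. Over all members, 6 of 14 sequences held a hexamer, those of *Il4i1*, *Serinc2*, *Tmem37*, *Pdgfa* and *Cap1*, while 38.6% of the 32851 promoters of all genes did. A direct repeat of hexamers with a spacer of 3 bases, the full form of the element, was in 0 of the 14 sequences and in 13 (0.0396%) of all promoters. A match is a description of letters and not a binding site.

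The untreated library held 70266983 unique molecular identifiers (UMIs, each marking 1 captured mRNA molecule) in 6076 barcodes, and the calcitriol library 60392557 UMIs in 4562 barcodes. After the filters, 4436 untreated and 3693 calcitriol cells remained, and 8 barcodes occurred in both libraries. The cells were clustered again from the counts, and clusters were named from marker genes, so that every name below stands for a cluster with markers of that type. The 11 types described belong to 5 classes, with 54 untreated and 60 calcitriol cells of mature osteoblasts, 295 and 271 of periosteal osteoblast precursors, 437 and 664 of fibroblasts, 141 and 185 of tendon cells and 116 and 160 of the tendon junction. Chondrocytes fell into superficial articular (219 and 598 cells), *Notum* and *Sfrp5* (85 and 223), growth plate (84 and 149) and prehypertrophic or hypertrophic cells (73 and 114). Endothelium fell into a cluster led by *Ccl21a* (38 and 39 cells) and one led by *Fabp4* (229 and 269).

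Levels are given as the UMIs of a gene scaled to 1000000 UMIs of the cells (counts per 1000000, CPM), and brackets hold exact 95% intervals. The intervals cover counting error only, not variation between mice or libraries. A ratio is calcitriol over untreated on the log2 scale, and a gene was counted as higher or lower from 2-fold on, among genes with at least 20 UMIs over both libraries. Erythroid cells made up 52.0% of the untreated and 11.8% of the calcitriol cells, and haemoglobin took 1.2% of the UMIs of untreated and 0.265% of those of calcitriol osteoblast-like cells. Haemoglobin was read in the other classes too, at 1.92% and 0.374% in chondrocyte-like and 2.68% and 0.886% in fibroblast-like cells. It took 2.60% and 0.999% in tendon-like and 2.59% and 0.594% in endothelial-like cells. Whether these UMIs were free RNA or came from doublets was not tested. Nor was the part of erythroid RNA in the ratios tested. An estimate of it as free RNA is set beside the members read in erythroid cells.

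Outside osteocytes, few of the members were 2-fold higher after calcitriol. In osteoblast-like cells, 7 members had at least 20 UMIs, of which 1, *Sulf2*, was higher and 0 were lower, where 4.97% of 11655 genes were higher and 3.63% were lower. In chondrocyte-like cells, 0 of 7 members were higher and 0 were lower, against 4.91% and 5.54% of 13461 genes. In fibroblast-like cells, 0 of 7 were higher and 1, *Dyrk3*, was lower, against 4.5% and 4.11% of 11809 genes. In tendon-like cells, 0 of 6 were higher and 1, *Ccnd2*, was lower, against 5.38% and 5.85% of 10671 genes. In endothelial-like cells, 0 of 8 were higher and 2, *Tmem37* and *Dyrk3*, were lower, against 3.36% and 4.3% of 10663 genes. These are 0 to 2 members per class, which do not set the members apart from the background of all genes. Ratios of classes with several types also reflect the shares of those types, which differed between the libraries. Superficial articular chondrocytes held 3463990 of 10321621 untreated and 9592912 of 21684860 calcitriol UMIs of chondrocyte-like cells. *Ccnd2* was at -0.18 in that class, but at -0.49 in superficial articular, 0.00 in *Notum* and *Sfrp5*, -1.38 in growth plate and -0.60 in (pre)hypertrophic chondrocytes.

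The median ratio of the members that passed was 0.43 in osteoblast-like cells, where the median of all genes was -0.08. It was -0.21 in chondrocyte-like cells (all genes -0.07), -0.31 in fibroblast-like cells (all genes -0.08), -0.65 in tendon-like cells (all genes -0.07) and -0.24 in endothelial-like cells (all genes -0.04). Only the osteoblast-like median was thus above that of all genes, and 5 of the 7 osteoblast-like ratios were above 0. That median is the ratio of *Pdgfa*, which was -0.03 with cells taken by marker UMIs alone. Among the 5 ratios, that of *Il12a* was 0.10 [-0.56, 0.77], and that of *Dyrk3* rested on 10 and 18 UMIs. Over the 11 types, 60 of the 110 pairs of a gene and a type had at least 20 UMIs. Of these, 6 were at least 2-fold higher and 6 at least 2-fold lower, and the counting interval lay above 0 in 9 and below 0 in 24. Over all 106611 pairs of a gene and a type with that many UMIs, 5.27% were at least 2-fold higher and 5.15% at least 2-fold lower, and the interval lay above 0 in 12.5% and below 0 in 19.5%. The higher ones were *Sulf2* in 4 types, *Mxd1* in *Ccl21a* endothelium and *Dyrk3* in periosteal precursors. The lower ones were *Ccnd2* in tendon cells and growth plate chondrocytes, *Sulf2* in superficial chondrocytes, *Pdgfa* in *Ccl21a* endothelium, *Tmem37* in *Fabp4* endothelium and *Dyrk3* in fibroblasts.

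**Figure D1:**
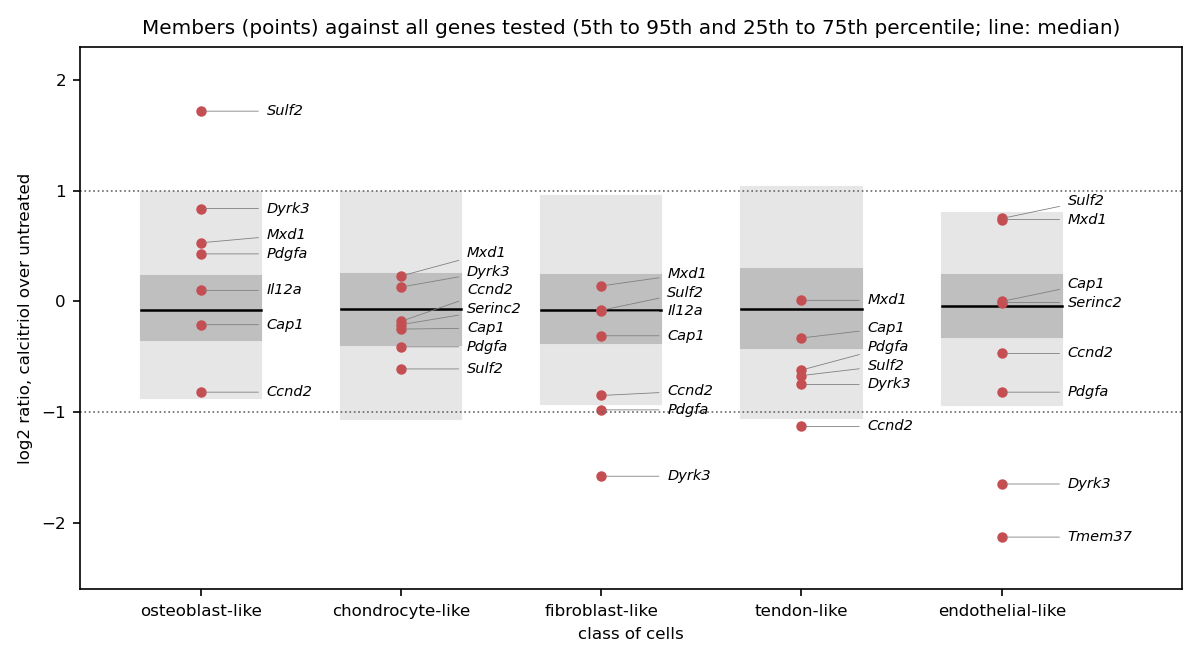
The log2 ratio of calcitriol over untreated (vertical axis) of each member with at least 20 UMIs (points) in the 5 classes, over the range of all genes tested in that class (light band 5th to 95th percentile, dark band 25th to 75th, black line median). *Sulf2* at 1.72 in osteoblast-like cells is above the 2-fold line (dotted), whereas *Ccnd2* in tendon-like, *Dyrk3* in fibroblast-like and *Dyrk3* and *Tmem37* in endothelial-like cells are below the lower one. Classes with several types pool them, and the shares of those types differed between the libraries.

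For reference, in the osteocyte cluster (23 untreated and 67 calcitriol cells) 9 members had at least 20 UMIs, 7 were at least 2-fold higher and 0 were lower, beside 9.99% and 8.7% of 5013 genes. Nothing is read from these counts, because the members were selected on that contrast. The 7 were *Il4i1*, *Il12a*, *Ccnd2*, *Serinc2*, *Sulf2*, *Mxd1* and *Cap1*. *Pdgfa* was at 730 and 1007 CPM in osteocytes and *Dyrk3* at 23.4 and 25.7 CPM, and *Tmem37* had 0 and 19 UMIs.

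**Figure D2:**
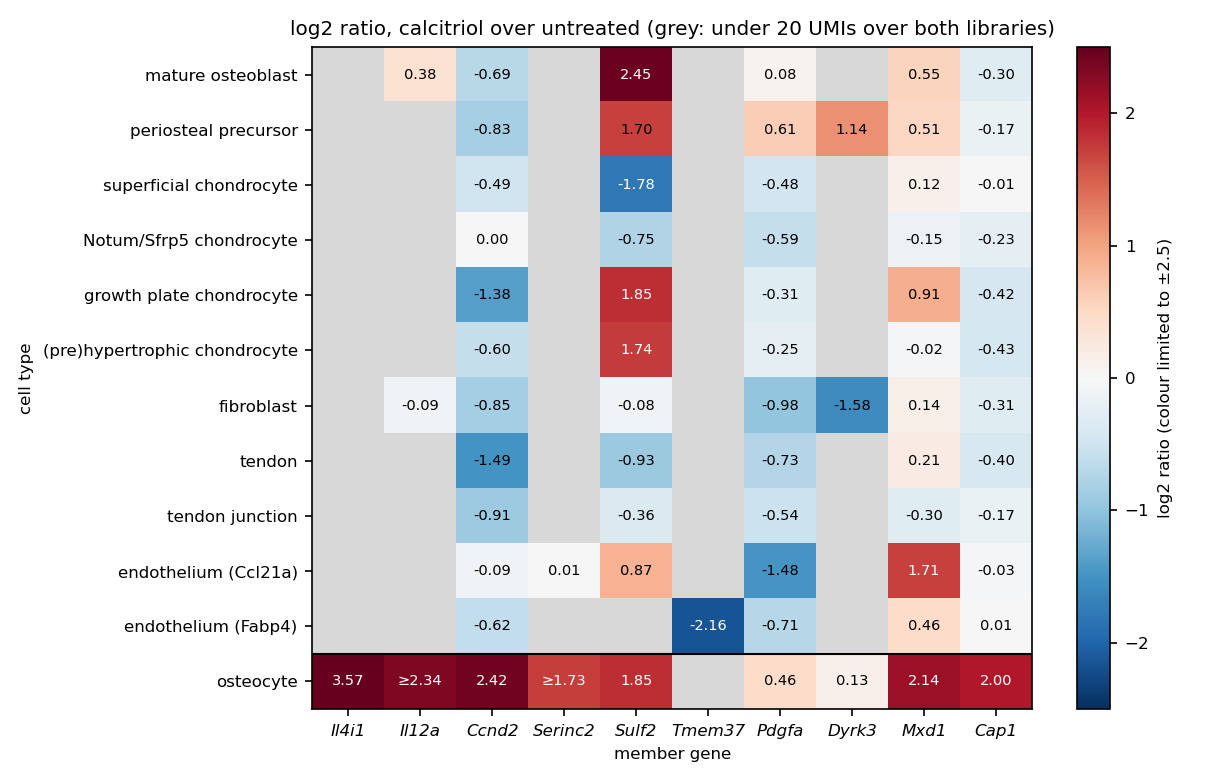
The log2 ratio of calcitriol over untreated of each member (columns) in the 11 types and, below the line, in osteocytes (rows), with grey for fewer than 20 UMIs. The osteocyte row is high for 7 members, while outside it *Sulf2* is high in osteoblasts and in growth plate and (pre)hypertrophic chondrocytes, *Ccnd2*, *Pdgfa* and *Cap1* are mostly low, and *Il4i1* is grey.

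*Sulf2* encodes a secreted sulfatase that trims heparan sulfate outside the cell and thereby alters the binding of growth factors. It lies on chromosome 2 (GRCm38, 166073089 to 166155663, minus strand), and its last bases overlap *Ncoa3* on the opposite strand by 154 bases. In untreated cells the highest levels were in fibroblasts (92.1 CPM), the tendon junction (86.8), superficial articular chondrocytes (78.8) and tendon cells (73.5), whose counting intervals overlapped. *Ccl21a* endothelium (47.3), periosteal precursors (24.2), *Notum* and *Sfrp5* chondrocytes (20.2) and (pre)hypertrophic chondrocytes (10.7) followed. Mature osteoblasts (4.93), growth plate chondrocytes (3.71) and *Fabp4* endothelium (3.39) were lowest and did not differ beyond counting error. After calcitriol the order changed, with fibroblasts (86.8), *Ccl21a* endothelium (86.4), periosteal precursors (78.2) and the tendon junction (67.6) at the top.

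In periosteal osteoblast precursors, *Sulf2* had 125 UMIs (24.2 CPM [20.1, 28.8]) in the untreated and 394 UMIs (78.2 CPM [70.7, 86.4]) in the calcitriol library, a ratio of 1.7 [1.40, 2.0]. Only 1.62% of the genes tested there had a higher ratio. In mature osteoblasts it had 7 UMIs (4.93 CPM [1.98, 10.2]) and 43 UMIs (27.0 CPM [19.5, 36.3]), a ratio of 2.45 [1.29, 3.85] with 0.783% of genes above it. The intervals of the libraries did not overlap in either type.

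Cells with at least 1 *Sulf2* UMI made up 24.4% of untreated and 41.3% of calcitriol periosteal precursors, and 4.1% and 12.7% once every cell was thinned to 2000 UMIs. Among erythroid cells, where the gene should be absent, the shares were 0.303% and 0.23%. Their median depth was lower (10431.5 and 9865 UMIs, against 16332 and 15388 in periosteal precursors). Haemoglobin took 67.4% and 76.6% of the erythroid UMIs, so that these shares are not matched in depth for other genes. Cells with 5 or more *Sulf2* UMIs went from 0.678% to 10.3% of periosteal precursors, and the highest cell held 6 UMIs in the untreated and 21 in the calcitriol library. The gain was thus in both the number of positive cells and the UMIs per cell.

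Markers of osteocytes were read beside these values. Their sum was 280 CPM in untreated and 235 CPM in calcitriol periosteal precursors, with 3 of 8 markers higher in calcitriol and *Sost* at 0 in both libraries. In mature osteoblasts it was 1237 and 2785 CPM, with 7 of 8 higher and *Sost* at 0 in both, and the sum of the mature osteoblast markers was 128168 and 66765 CPM, with 2 of 8 higher. The part of these shifts in the value of mature osteoblasts was not tested. Cells with an *Fgf23* UMI numbered 9 in calcitriol mature osteoblasts and 5 in calcitriol periosteal precursors, and 0 in the untreated ones. Without them, *Sulf2* stood at 24 CPM in calcitriol mature osteoblasts and at 78.3 CPM in calcitriol periosteal precursors.

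Chondrocytes split into those with more and those with less *Sulf2*. In (pre)hypertrophic chondrocytes, the cells that enlarge before bone replaces cartilage, *Sulf2* was at 10.7 CPM (31 UMIs) in the untreated and 35.8 CPM (154 UMIs) in the calcitriol library, a ratio of 1.74 [1.18, 2.35]. Cells with 5 or more UMIs made up 0% of 73 untreated cells, which allows a share of up to 4.11%, and 9.65% of 114 calcitriol cells. In growth plate chondrocytes it was at 3.71 CPM (9 UMIs) and 13.4 CPM (52 UMIs), a ratio of 1.85 [0.82, 3.06]. Thinned to 2000 UMIs a cell, the ratios were 0.38 in the former, from 2 and 4 UMIs, and 0.19 in the latter, from 1 and 2 UMIs. The osteocyte markers summed to 195 and 273 CPM in the former and to 51.5 and 92.6 CPM in the latter. Markers of fibroblasts, a type rich in *Sulf2*, summed to 943 and 1689 CPM in (pre)hypertrophic and to 563 and 1384 CPM in growth plate chondrocytes, with 6 of 8 higher in calcitriol in each. Mature osteoblast markers went from 455 to 1310 CPM in growth plate cells and synovial lining markers from 894 to 2104 CPM in (pre)hypertrophic cells. The part of these cells in the *Sulf2* values was not tested.

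In superficial articular chondrocytes, which line the joint and make lubricin, the direction was opposite. *Sulf2* was at 78.8 CPM [69.7, 88.7] (273 UMIs) in the untreated and at 22.9 CPM [20.0, 26.2] (220 UMIs) in the calcitriol library, a ratio of -1.78 [-2.04, -1.52], with a lower ratio in 1.14% of genes. Positive cells made up 46.6% and 23.1% of the type (11.6% and 4.88% after thinning). Cells with 5 or more UMIs made up 5.02% of untreated cells, and the highest of the 598 calcitriol cells held 4.

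That type was also 4.94% of the untreated and 16.2% of the calcitriol cells. Its own markers summed to 84371 and 91851 CPM, those of the synovial lining to 42656 and 44091 CPM, and those of tendon to 12410 and 8185 CPM with 1 of 8 higher in calcitriol. The synovial list shares *Prg4*, and the tendon list shares *Comp*, with the list of superficial articular chondrocytes. Tendon cells were themselves rich in *Sulf2*, and the part of these cells in the value was not tested. In *Notum* and *Sfrp5* chondrocytes *Sulf2* was at 20.2 and 12 CPM (-0.75 [-1.44, -0.05]). Because the directions were opposite, the ratio of all chondrocyte-like cells (33.3 and 21.8 CPM, -0.61) lay within the counting interval of *Notum* and *Sfrp5* chondrocytes alone.

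*Sulf2* was at 92.1 and 86.8 CPM in fibroblasts (-0.08 [-0.25, 0.08]), an interval for counting error only that does not bound differences between mice or libraries. It was lower in tendon cells (73.5 and 38.7 CPM, -0.93 [-1.30, -0.56]), and at the tendon junction it was at 86.8 and 67.6 CPM (-0.36 [-0.78, 0.06]). In *Ccl21a* endothelium it was at 47.3 and 86.4 CPM (38 and 73 UMIs, 0.87 [0.28, 1.47]), and 29 of the 73 UMIs were in 1 cell. This endothelium, with 38 and 39 cells, has the fewest cells of any type here. In it the markers of superficial articular chondrocytes summed to 448 and 6317 CPM and those of the synovial lining to 579 and 6400 CPM. Both lists hold *Prg4*, so that these sums are not independent. Their part in the values of this type was not tested. The other extracellular sulfatase, *Sulf1*, did not share these ratios. It was at 152 and 108 CPM in periosteal precursors (-0.48 [-0.64, -0.32]), at 13.2 and 4.38 CPM in growth plate chondrocytes (-1.59 [-2.53, -0.70]), at 48.0 and 27.0 CPM in (pre)hypertrophic chondrocytes (-0.83) and at 24 and 23.8 CPM in superficial chondrocytes.

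**Figure D3:**
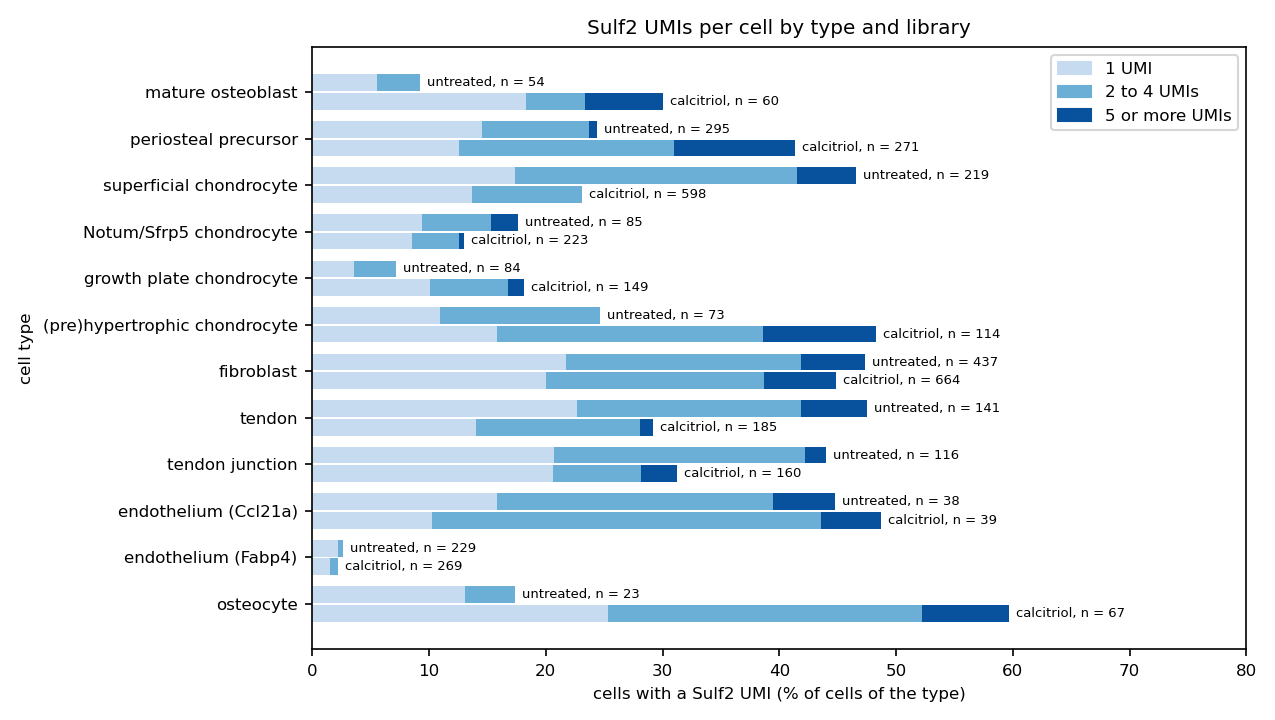
Share of the cells of each type and library (horizontal axis, % of cells) with 1, 2 to 4, or 5 or more *Sulf2* UMIs, with the number of cells beside each bar. Bars are longer in calcitriol for osteoblasts, growth plate and (pre)hypertrophic chondrocytes (24.7% to 48.2% of the latter), shorter for superficial articular chondrocytes (46.6% to 23.1%) and tendon cells, and of like length for fibroblasts (47.4% and 44.9%).

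*Pdgfa* encodes the A chain of platelet-derived growth factor, a secreted growth factor for cells of the connective tissue. It lies on chromosome 5 (138976014 to 138997370, minus strand), where the antisense gene *6330403L08Rik* covers 2315 of its bases. It was read in every type, from 57.8 CPM in untreated fibroblasts to 200 CPM in untreated mature osteoblasts. Mature osteoblasts, the tendon junction (190) and (pre)hypertrophic chondrocytes (178) had overlapping intervals in the untreated library.

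Of the 11 types, *Pdgfa* had a counting interval above 0 in periosteal precursors alone. In periosteal precursors it was at 72.7 CPM (376 UMIs) and 111 CPM (559 UMIs), a ratio of 0.61 [0.42, 0.80], which did not reach 2-fold. Of the 559 UMIs 77 were in 1 cell, and without the top cell of each library the ratio was 0.54. The difference was not seen at matched depth, since cells thinned to 2000 UMIs held 45 untreated and 41 calcitriol UMIs, nor with cells taken by marker UMIs alone (-0.06). In mature osteoblasts it was at 200 and 211 CPM (0.08 [-0.15, 0.31]). Positive cells made up 54.6% and 49.8% of periosteal precursors (13.3% and 12% after thinning) and 87.0% and 68.3% of mature osteoblasts (29.6% and 35% after thinning), so that no order is read from these shares. Among erythroid cells 0.390% and 0.461% held a *Pdgfa* UMI.

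In the other 9 types *Pdgfa* was lower in calcitriol, and each counting interval lay below 0. The ratio reached 2-fold in *Ccl21a* endothelium, with 102 CPM (82 UMIs) and 36.7 CPM (31 UMIs), or -1.48 [-2.12, -0.86]. Fibroblasts followed at 57.8 and 29.3 CPM (-0.98 [-1.22, -0.74]), tendon cells at 109 and 65.5 CPM (-0.73) and *Fabp4* endothelium at 168 and 102 CPM (-0.71). The 4 chondrocyte types ranged from -0.59 to -0.25.

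The receptor chain for this ligand, *Pdgfra*, was higher in calcitriol in periosteal precursors (74.4 and 182 CPM, 1.29 [1.12, 1.47]), tendon cells (72.6 and 167 CPM, 1.2 [0.93, 1.47]), the tendon junction (22.6 and 73.7 CPM, 1.7 [1.07, 2.39]) and *Notum* and *Sfrp5* chondrocytes (25.4 and 60.5 CPM, 1.25 [0.76, 1.78]). It was also higher in (pre)hypertrophic chondrocytes (3.80 and 10.2 CPM, 1.43) and in growth plate chondrocytes (3 and 22 UMIs), where its level was low. In fibroblasts, where it was most abundant, it was at 321 and 432 CPM (0.43 [0.35, 0.51]). In *Fabp4* endothelium it was at 6.29 and 6.51 CPM. Fibroblast markers, a list that holds *Pdgfra*, summed to 563 and 1384 CPM in growth plate and 943 and 1689 CPM in (pre)hypertrophic chondrocytes. They summed to 3382 and 6643 CPM in *Notum* and *Sfrp5* chondrocytes and to 4582 and 4848 CPM in periosteal precursors. In tendon cells the sums were 34336 and 36865 CPM, and at the tendon junction 10068 and 10486 CPM. Their part in the *Pdgfra* values was not tested. The B-type receptor *Pdgfrb* was at 93.1 and 142 CPM in tendon-like cells (0.61) and at 13.0 and 22.8 CPM in chondrocyte-like cells (0.81).

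*Il4i1* and *Il12a* are the immune products among the members. *Il4i1*, a secreted enzyme that oxidizes aromatic amino acids, had 12 UMIs in the untreated and 248 UMIs in the calcitriol library, of which 238 (96.0%) were in 20 osteocytes. Of the 12 untreated UMIs, 5 were in 1 osteocyte and 4 in 1 erythroid cell. It had 0 UMIs in all 349 untreated and 331 calcitriol osteoblast-like cells, which allows up to 0.455 and 0.452 CPM. It also had 0 UMIs in tendon-like cells. In the other 3 classes together it had 3 untreated and 10 calcitriol UMIs. Of these, 4 were in 3 superficial articular chondrocytes of the calcitriol library, a type with 0 untreated UMIs. No ratio outside osteocytes is given, since no type reached 20 UMIs. The annotated gene (chromosome 7, 44816387 to 44840809) shares 14426 bases with *Nup62* on the same strand, and how reads of the shared part were counted is not given in the sources used here.

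*Il12a* encodes the p35 chain of the cytokines IL-12 and IL-35. Outside osteocytes its UMIs were mainly in mature osteoblasts, with 26 UMIs in 13 of 54 untreated cells (18.3 CPM) and 38 UMIs in 9 of 60 calcitriol cells (23.8 CPM). The ratio was 0.38 [-0.38, 1.16], and 14 of the 38 UMIs were in 1 cell. Periosteal precursors held 13 and 4 UMIs, too few for a ratio, and fibroblasts held 11 and 17 (2.05 and 1.92 CPM, -0.09 [-1.27, 1.15]). In osteocytes *Il12a* had 0 and 61 UMIs. The chains that pair with p35, *Il12b* and *Ebi3*, had at most 3 UMIs in any of the types.

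*Ccnd2* encodes cyclin D2, which activates the kinases CDK4 and CDK6 early in the cell cycle. It lies on chromosome 6 (127125162 to 127152193, minus strand), and 2 antisense genes, *Gm43126* and *9330179D12Rik*, overlap it. The gene was abundant in untreated cells of the tendon junction (272 CPM), periosteal precursors (215), superficial articular chondrocytes (193), *Fabp4* endothelium (166), fibroblasts (149) and *Ccl21a* endothelium (139). Growth plate (36.3) and (pre)hypertrophic chondrocytes (16.2) were lowest.

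Outside osteocytes *Ccnd2* was lower in calcitriol in 10 of the 11 types, and in 8 of them the interval lay below 0. The ratio passed 2-fold in tendon cells, with 130 CPM (280 UMIs) and 46.5 CPM (125 UMIs), or -1.49 [-1.80, -1.18]. It also passed 2-fold in growth plate chondrocytes, with 36.3 CPM (88 UMIs) and 13.9 CPM (54 UMIs), or -1.38 [-1.90, -0.88]. The tendon junction (272 and 145 CPM, -0.91), fibroblasts (149 and 82.6 CPM, -0.85 [-0.99, -0.70]) and periosteal precursors (215 and 121 CPM, -0.83 [-0.97, -0.68]) came next. The share of positive fibroblasts was 64.8% and 42.9% (23.9% and 13.3% after thinning), beside 0.477% and 0.461% of erythroid cells.

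Mature osteoblasts, the cells that become osteocytes, had *Ccnd2* at 119 CPM (169 UMIs) and 74.0 CPM (118 UMIs), or -0.69 [-1.04, -0.34]. Without the cells that held *Fgf23* it was at 79.0 CPM in the calcitriol library. In *Notum* and *Sfrp5* chondrocytes it was at 63.9 and 64.1 CPM (0.00 [-0.34, 0.36]) and in *Ccl21a* endothelium at 139 and 131 CPM (-0.09 [-0.48, 0.31]). A further cluster stood apart, a mixture with osteoblast markers and *Col2a1* that was kept out of the 5 classes (58 and 124 cells, led by *Tnfrsf11b*, *Spp1* and *Irx5*). It joined the osteocyte cluster at resolution 0.5, with 20 components and with all variable genes used. There *Ccnd2* was at 42.6 and 79.0 CPM (0.89 [0.35, 1.47]), whereas in osteocytes it was at 46.8 and 250 CPM. Of the 214 *Ccnd2* UMIs of calcitriol osteocytes, 58 were in 1 cell. Without the cells that held *Fgf23*, calcitriol osteocytes were at 84.3 CPM.

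In tendon cells the markers of tendon summed to 20450 and 23660 CPM, though only 1 of 8 was higher in calcitriol. Those of mature osteoblasts summed to 16016 and 7811 CPM, with 4 of 8 higher. The part of this shift in the *Ccnd2* value was not tested. The other D-type cyclins did not all move with it. *Ccnd1* was lower in *Fabp4* endothelium (217 and 35.6 CPM, -2.61 [-2.96, -2.26]), tendon cells (84.7 and 29.8 CPM, -1.51) and fibroblasts (111 and 42.9 CPM, -1.37), and in periosteal precursors it was at 69.8 and 73.3 CPM. *Ccnd3* was higher in tendon cells (37.7 and 59.5 CPM, 0.66 [0.26, 1.06]). *Cdk4* was lower in chondrocyte-like cells (57.5 and 26.7 CPM, -1.11 [-1.28, -0.94]), and *Cdk6* was at 146 and 125 CPM in growth plate chondrocytes.

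**Figure D4:**
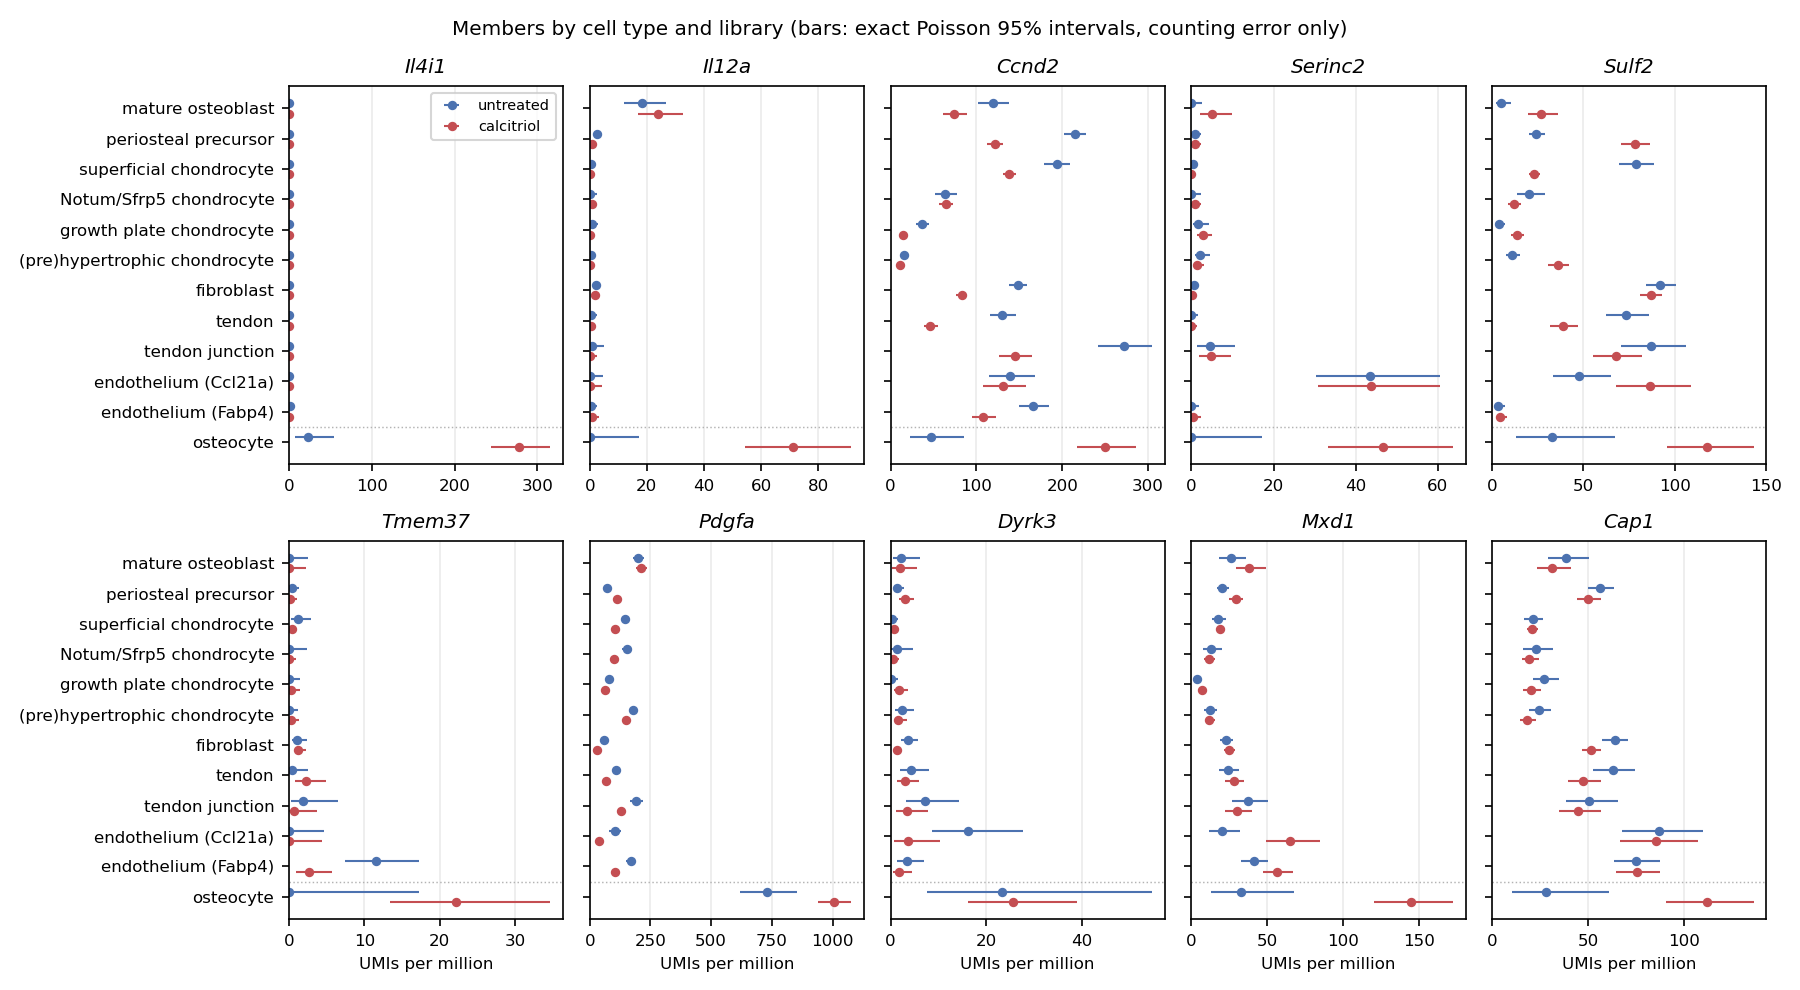
CPM of each member (horizontal axes, 1 panel per gene, scales differ) in the 11 types and in osteocytes for the untreated (blue) and calcitriol (red) library, with bars for exact Poisson 95% intervals. *Ccnd2* is mostly lower in red outside osteocytes, *Sulf2* is higher in red in osteoblasts and lower in superficial chondrocytes, *Serinc2* stands out in *Ccl21a* endothelium, and *Il4i1* lies near 0 in every type but osteocytes.

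*Mxd1* encodes a repressor that takes the partner MAX away from MYC. Erythroid cells held 83.9% of its UMIs in the untreated and 27.3% in the calcitriol library, at 159 and 128 CPM. At the erythroid ratio of *Mxd1* to haemoglobin, free RNA would give 18.6 of the 143 untreated and 2.95 of the 208 calcitriol UMIs of osteoblast-like cells, and 17.5 of 101 and 3.13 of 185 in endothelial-like cells. More UMIs were thus read in both classes than this estimate gives. Its part was larger elsewhere, with 46.6 of 125 untreated and 13.6 of 308 calcitriol UMIs in chondrocyte-like cells. In growth plate chondrocytes alone it gives 8.24 of 9 and 3.54 of 27, and its part in the *Mxd1* ratios was not tested.

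The ratio of *Mxd1* was above 0 in 8 of the 11 types, and its interval in 3. In *Ccl21a* endothelium *Mxd1* was at 19.9 CPM (16 UMIs in 13 cells) and 65.1 CPM (55 UMIs in 16 cells), a ratio of 1.71 [0.88, 2.61], the only one of *Mxd1* past 2-fold in the 11 types, in the endothelium whose cartilage and synovial markers also differed. It was at 41.1 and 56.4 CPM in *Fabp4* endothelium (0.46 [0.05, 0.87], but -0.27 after thinning) and at 20.5 and 29.2 CPM in periosteal precursors (0.51 [0.14, 0.89]). At clustering resolution 1.2 the *Fabp4* endothelium split, and the part led by *Selp* (131 and 147 cells) had a ratio of -0.30. The part still led by *Fabp4* (98 and 122 cells) was not read. In mature osteoblasts *Mxd1* was at 26.0 and 38.2 CPM (0.55 [-0.06, 1.18]), and in (pre)hypertrophic chondrocytes at 12.1 and 11.9 CPM. *Max* was at 41.1 and 42.6 CPM in *Ccl21a* endothelium and at 36.3 and 52.5 CPM in tendon cells (0.53 [0.12, 0.95]).

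*Dyrk3*, a kinase that dissolves stress granules and is known from red cell precursors, was read almost only in erythroid cells, which held 96.9% of its untreated and 83.5% of its calcitriol UMIs. It was at 114 and 127 CPM there. Free RNA at the erythroid ratio to haemoglobin would give 24.3 untreated and 13.0 calcitriol UMIs in fibroblasts, where 20 and 11 were read, and 12.5 and 3.10 in endothelial-like cells, where 20 and 7 were read. That estimate is rough, since in untreated chondrocyte-like cells it gives 33.3 UMIs where 10 were read, and since *Dyrk3* ranged from 0 to 333 CPM between erythroid clusters. In fibroblasts *Dyrk3* was at 3.73 and 1.25 CPM (-1.58 [-2.79, -0.45]), and the part of free RNA in this ratio was not tested. Without the cells marked as doublets the ratio was 0.22. In calcitriol osteoblast-like cells 18 UMIs were read where free RNA would give 2.91, while in untreated ones 10 were read where it would give 13.3. In periosteal precursors alone *Dyrk3* had 7 and 15 UMIs (1.14 [-0.24, 2.67]).

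The membrane proteins were scarce outside single types. *Serinc2*, of the serine incorporator family, had 70 and 128 UMIs in the libraries. Outside osteocytes it was mainly in *Ccl21a* endothelium, with 35 UMIs in 8 of 38 untreated cells (43.6 CPM) and 37 UMIs in 11 of 39 calcitriol cells (43.8 CPM), a ratio of 0.01 [-0.70, 0.72]. Of the 35, 18 were in 1 cell. In the other endothelial type it had 0 and 1 UMI. Mature osteoblasts held 0 and 8 *Serinc2* UMIs, the 8 in 1 cell, and osteocytes held 0 and 40 in 11 cells.

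The paralogs of *Serinc2* were more abundant. *Serinc3* was higher in endothelial-like cells (664 and 1437 CPM, 1.11 [1.04, 1.19]), in both types alike (1.13 and 1.10). *Serinc5* was higher in (pre)hypertrophic chondrocytes (218 and 440 CPM, 1.01 [0.88, 1.14]), growth plate chondrocytes (46.6 and 126 CPM, 1.44 [1.14, 1.74]) and mature osteoblasts (22.5 and 60.2 CPM, 1.42 [0.83, 2.04]) and lower in periosteal precursors (57.6 and 28 CPM, -1.04 [-1.34, -0.75]).

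*Tmem37*, which is related to the gamma subunits of calcium channels, had 64 and 88 UMIs in the libraries. It was lower in *Fabp4* endothelium, with 24 UMIs in 12 of 229 untreated cells (11.6 CPM [7.44, 17.3]) and 6 UMIs in 4 of 269 calcitriol cells (2.60 CPM [0.956, 5.67]), a ratio of -2.16 [-3.74, -0.83]. A lower ratio was found in 0.677% of the genes tested there. It had 0 UMIs in *Ccl21a* endothelium and in erythroid cells of both libraries. Smooth muscle and pericytes, which are not among the 5 classes, had the highest level, 37.1 and 42.9 CPM (0.21 [-0.62, 1.07]). In the *Fabp4* cluster the endothelial markers summed to 4877 and 4474 CPM and the smooth muscle markers to 1592 and 1653 CPM, and the part of smooth muscle RNA was not tested.

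*Cap1*, which recycles actin monomers and is used by most cells, was between 21.1 and 87.2 CPM in the 11 untreated types. Its ratio was at or just below 0 nearly everywhere, from -0.43 to 0.01, and the interval lay below 0 in fibroblasts (63.9 and 51.7 CPM, -0.31 [-0.51, -0.10]) and tendon cells (62.8 and 47.6 CPM, -0.40 [-0.76, -0.04]). In mature osteoblasts *Cap1* was at 38.7 and 31.3 CPM (-0.30 [-0.89, 0.27]). In osteocytes it was at 28.1 and 112 CPM (6 and 96 UMIs). The paralog *Cap2* had fewer than 20 UMIs in each of the 11 types.

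The receptor and its classical targets were read in the same cells from a list of 20 genes. *Vdr* was at 57.7 CPM (82 UMIs) in untreated and 152 CPM (243 UMIs) in calcitriol mature osteoblasts, a ratio of 1.40 [1.03, 1.78], and at 18.2 and 49.6 CPM in periosteal precursors (1.45 [1.10, 1.81]). The study describes higher *Vdr* in controls than after calcitriol in an osteoblast and a chondrocyte cluster. Its clusters are not the types used here. In (pre)hypertrophic chondrocytes *Vdr* was at 19.7 and 16.3 CPM (-0.27 [-0.80, 0.26]), and in growth plate chondrocytes at 4.95 and 6.70 CPM. It was near or at 0 in fibroblasts (0 and 25 UMIs), tendon-like cells (3 and 13) and endothelial-like cells (13 and 7). In superficial articular chondrocytes *Vdr* was at 2.89 and 1.15 CPM (10 and 11 UMIs), a ratio of -1.33 from so few UMIs that no direction is read.

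Of the 20 genes, 16 were tested in osteoblast-like cells, of which 5 were higher and 0 lower (*Vdr*, *Spp1*, *Enpp1*, *Gadd45a* and *Txnip*), with a median ratio of 0.19. In fibroblast-like cells 5 of 17 were higher and 0 lower (*Vdr*, *Tnfsf11*, *Spp1*, *S100g* and *Txnip*), with a median of 0.32. In chondrocyte-like cells 2 of 15 were higher and 0 lower (*Tnfsf11* and *Txnip*, median -0.22), and in tendon-like cells 2 of 15 were higher and 0 lower (*Spp1* and *Txnip*, median -0.04). In endothelial-like cells 1 of 15 was higher (*Spp1*) and 3 were lower (*Vdr*, *Slc8a1* and *Timp1*, median 0.12). The endothelial-like ratio of *Vdr* rests on the few UMIs given above, so that no direction is read from it. For *Timp1* the types differed, since it was at least 2-fold higher in *Ccl21a* and at least 2-fold lower in *Fabp4* endothelium. Of all genes tested, 4.97% were higher and 3.63% lower in osteoblast-like cells, and 4.5% and 4.11% in fibroblast-like cells. These shares were 4.91% and 5.54% in chondrocyte-like, 5.38% and 5.85% in tendon-like and 3.36% and 4.3% in endothelial-like cells. Part of the list of 20 genes was named by the study on these libraries, so that its counts are not independent of them.

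*Spp1* (osteopontin, a bone matrix protein) was at 5904 and 32484 CPM in periosteal precursors (2.46) and at 71.6 and 596 CPM in fibroblasts (3.06 [2.91, 3.21]), while erythroid cells, which should lack it, had 20.6 and 69.1 CPM. *Enpp1*, which makes pyrophosphate, was at 76.0 and 426 CPM in mature osteoblasts (2.49 [2.19, 2.79]), and *S100g*, the calcium-binding protein calbindin-D9k, at 4.85 and 35.2 CPM in fibroblasts (2.86 [2.28, 3.50]). *Tnfsf11* was at 11.4 and 35.6 CPM in (pre)hypertrophic chondrocytes (1.65 [1.09, 2.23]). It had 0 and 29 UMIs in growth plate chondrocytes and 3 and 70 in fibroblasts, and in periosteal precursors it was at 109 and 122 CPM (0.16). *Cyp24a1* had 0 UMIs in all untreated cells of the 5 classes, and 11 calcitriol UMIs in chondrocyte-like and 2 in osteoblast-like cells. Of the genes listed as lowered by vitamin D, *Fn1* (fibronectin) was higher in osteoblast-like cells (1366 and 2743 CPM, 1.01) and in endothelial-like cells (125 and 315 CPM, 1.34). Within the endothelium, *Fn1* and *Igfbp7*, another gene of that list, passed 2-fold in the *Ccl21a* cluster and not in the *Fabp4* cluster. The *Ccl21a* cluster is the one whose cartilage and synovial markers also differed, and their part was not tested.

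Genes whose level followed that of a member most closely were sought over the 11 types and osteocytes of both libraries, 24 points that share library and depth, and Pearson's r of log2(CPM + 1) is given as a description across these points. For *Sulf2* they were *Cebpb* (r = 0.77), *Ndfip1* (0.76) and *Pdcd2* (0.74). For *Ccnd2* they were *Cd81* (0.88), *Ankrd50* (0.85) and *Rfxap* (0.83), and for *Pdgfa* the leading one was *C030013C21Rik* (0.83). For *Il4i1* they were *Sost* (0.90), *Ctsw* (0.85) and *Ypel5* (0.85), and *Il12a* was closest to *Fgf23* (0.81). For *Il4i1* and *Il12a*, a few points with most of the UMIs set these values of r. Osteocytes, on which the members were selected, are among the 24 points, so that nothing is read from likeness to *Sost* or *Fgf23*.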

How the data were processed

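Single-cell suspensions of pooled femurs were run on the 10x Genomics platform, with 1 library of 6 mice per group. The authors deposited UMI counts per gene and barcode for each library, and the submitters' processing notes name Cell Ranger 4.0.0, Seurat 3.2.2 and mm10. The counts were used as deposited, without normalization by the authors.

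Barcodes with at least 200 genes were clustered in each library with Seurat 5.3.0 (R 4.3.3). A cluster was left out when it failed all of 3 limits, namely at most 10% mitochondrial UMIs, at least 1000 genes and at least 2000 UMIs (1 of 20 clusters in the untreated and 1 of 18 in the calcitriol library). The libraries were joined by anchor integration with 2000 variable genes, 30 components and resolution 0.8, which gave 26 clusters, 7 of them erythroid. The members and the vitamin D genes were kept out of the variable genes. A cluster was named when at least 3 markers of a type were each in at least 10% of its cells, at least 2-fold above the other cells and at least 50 UMIs. It stayed unnamed when none of these was among its 10 leading genes and a second type had markers too. Such a cluster, led by *Igfbp2* (117 untreated and 135 calcitriol cells), had 7 of 8 tendon markers and is in no class. Its *Ccnd2* was at 319 and 157 CPM (-1.03 [-1.23, -0.82]). These rules were chosen with the clusters in view, and so was the limit of 1000 CPM of *Col2a1* that kept 1 cluster (1.31% of untreated and 3.36% of calcitriol cells) out of the osteoblasts. Doublets were marked from simulated pairs (157 cells, 3.54%, and 109 cells, 2.95%) and kept.

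UMIs were summed per cell type and library and divided by the total. Poisson, conditional binomial and Clopper-Pearson 95% intervals are exact and were computed with SciPy 1.17.1. A count of 0 was given a limit of 3 counts. The median cell held 10014.5 UMIs in the untreated and 10646.5 in the calcitriol library. With 1 library per group, no test, standard error or p-value could be had. The scripts were tested on simulated data.

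The members and the gene lists were chosen with earlier results of these data known. The text names all 10 members, most genes of the vitamin D and partner lists that differed by 2-fold or stand beside a member, and genes most like some of the members. Not described above are *Thbd*, 2-fold higher in *Notum* and *Sfrp5* chondrocytes and the tendon junction, *Ppard* at the tendon junction and *Rxra* in tendon cells. Like genes needed at least 200 UMIs and members 100, which *Tmem37* did not reach. Alternatives were other clusterings (resolutions 0.5 and 1.2, and 20 components), classes by marker UMIs alone, removal of doublets, other totals, means of cells, thinning, removal of the top cell, and other minimums and folds.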

Additional observations from a re-analysis of the deposited data

Results flagged for a closer look

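*Sulf2* was looked at again because its calcitriol over untreated ratios went in opposite directions between cell types of the same bone. The log2 ratio was 2.45 in mature osteoblasts, 1.7 in periosteal osteoblast precursors, 1.85 in growth plate chondrocytes and 1.74 in prehypertrophic or hypertrophic chondrocytes, and it was -1.78 in superficial articular chondrocytes. The difference between these types was not tested, since each group is 1 library, and the counting intervals of the 4 higher values lie above 0 while that of the lower one lies below it. Periosteal precursors held 125 untreated and 394 calcitriol *Sulf2* UMIs and superficial chondrocytes 273 and 220, whereas the other 3 types held 7 to 31 untreated and 43 to 154 calcitriol UMIs.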

How the results depend on the processing

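No paired analysis was possible because each group is 1 library. Of 1094 alternative values of 88 single results, 1017 lay within the counting interval, 76 outside it (42 of them after thinning, 14 as means of cells' CPM and 11 with classes by marker UMIs alone), and 1 of those of at least 2-fold was reversed, *Dyrk3* in fibroblasts, which was 0.22 without marked doublets. Over the 51 values whose interval excludes 0, 6 of 640 alternatives had the other sign. Beside *Dyrk3* these were *Pdgfa* in periosteal precursors and osteoblast-like cells by marker UMIs alone (-0.06 and -0.03), and *Sulf2* in endothelial-like cells as a mean of cells' CPM (-0.23). The others were *Mxd1* in *Fabp4* endothelium after thinning (-0.27) and at resolution 1.2 (-0.30). The latter is the value of a *Selp*-led part of that cluster, and the part still led by *Fabp4* was not read. Over the 37 values whose interval holds 0, 67 of 454 had the other sign. Of 195 alternatives for the 16 values of at least 2-fold, 184 stayed past 2-fold. *Sulf2* ranged from 1.08 to 1.96 in periosteal precursors (13 alternatives) and from -1.94 to -1.63 in superficial chondrocytes (13 alternatives). In mature osteoblasts *Sulf2* ranged from 1.96 to 3.59, but only 9 alternatives gave a ratio. Thinning left 0 and 3 *Sulf2* UMIs in mature osteoblasts, too few for a ratio, so that their range does not cover thinning. *Sulf2* ranged from 0.19 to 1.99 in growth plate (13 alternatives) and from 0.38 to 1.89 in (pre)hypertrophic chondrocytes (11 alternatives). Both of these low ends came with thinning, which left 1 and 2 *Sulf2* UMIs in growth plate and 2 and 4 in (pre)hypertrophic cells. *Ccnd2* in tendon cells ranged from -1.51 to -0.82, *Mxd1* in *Ccl21a* endothelium from 1.65 to 2.58, *Pdgfa* there from -2.56 to -1.30 and *Tmem37* in *Fabp4* endothelium from -2.87 to -2.10.

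Counts of members moved as follows, and where nothing else is said the cause was not tested. In osteoblast-like cells the count of higher members was 2 with classes by marker UMIs alone, as means of cells' CPM, after thinning, at a minimum of 1 UMI and at 1.5-fold, and that of lower members was 1 at a minimum of 1 UMI and at 1.5-fold. In chondrocyte-like cells the count of higher members was 1 at a minimum of 1 UMI, and that of lower members 1 as means of cells' CPM, after thinning and at 1.5-fold. In fibroblast-like cells the count of higher members was 1 by marker UMIs alone. That of lower members was 0 by marker UMIs alone and at a minimum of 50 UMIs, 2 with totals without haemoglobin and mitochondrial genes, as means of cells' CPM, without the top cell and at a minimum of 1 UMI, and 3 at 1.5-fold. In tendon-like cells the count of lower members was 0 by marker UMIs alone, 2 at resolution 0.5, after thinning and at a minimum of 1 UMI, and 4 at 1.5-fold. In endothelial-like cells the count of higher members was 1 by marker UMIs alone and without doublets and 2 at 1.5-fold, and that of lower members 0 by marker UMIs alone and at a minimum of 50 UMIs and 1 without doublets and after thinning.

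Depth limits *Il4i1*, *Il12a*, *Serinc2*, *Tmem37* and *Dyrk3*, most of whose values outside osteocytes rest on fewer than 20 UMIs. Library, treatment and pool of mice cannot be told apart.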
